A study of Mus musculus with 786 samples.

Results

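The cells described here were haematopoietic stem cells (HSC) sorted from the bone marrow of bled mice and sequenced 1 cell per well, set against HSC from normal mice. Members were the wells of the bled HSC plate whose label gave exactly 1 cell and in which at least 1000 genes reached an FPKM of 1. Of 96 wells on that plate 53 held 1 cell and 48 of these passed, out of 373 cells that passed on the 7 single-cell plates of the series. The normal HSC were 50, 53 and 73 cells on HSC plates 1, 2 and 3. FPKM is a level scaled to transcript length and to the fragments of its own library. All mice were C57BL6 animals of 6 to 8 weeks, with no transgene or deletion named. HSC of both groups were sorted by the same gate (CD48-, CD150+, CD135-, CD34-), and MPP1, the multipotent precursor next to HSC, by the gate that differs only in being CD34+. How, how often and how long before sorting the mice were bled is not given in the sources used here, nor how many animals a plate holds. Plates 1 and 2 stand in 1 deposited table, plate 3, to whose wells an RNA spike-in was added, in another, and the bled plates in a table of their own. Plate 3 is labelled as an HSC replicate, though its growth note speaks of both normal and bled animals. With 1 bled HSC plate, bleeding, plate and table cannot be told apart.

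HSC are the rare marrow cells from which all blood cells descend, and most of them rest outside the cell cycle. Blood loss calls on the marrow to make red cells, and precursors downstream of HSC supply most of them. Among the genes that cells switch on within minutes of a stimulus are the immediate early genes, many of which encode transcription factors; the handling of cells during isolation is also known to induce them.

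Each gene was described by its share of cells at an FPKM of 1 or more and by its level, the mean of log2(FPKM + 1) over the cells of a plate. A gene lay outside the normal HSC when the bled plate was above, or below, all 3 HSC plates in both measures. Plate levels were also tested with limma over 7 plates in 4 groups, on 6717 genes with a mean share of at least 10% over the 4 HSC plates; the lone bled plate was assumed to vary like the others. Standard errors (SE) are from that fit and adjusted p values are its Benjamini-Hochberg values over all genes tested. Limma drew each SE mostly from a spread pooled over genes, with 100.4 prior against 3 residual degrees of freedom. Shares carry exact Clopper-Pearson intervals (95%), which cover counting error only. All differences are in log2(FPKM + 1), so the pseudocount of 1 makes those of low genes too small.

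The median number of genes detected was 2443 in bled HSC and between 1969 and 2594 on the HSC plates, so the bled plate lay inside their range. Wells labelled with no cell gave a background: 36 such wells on the bled HSC plate had a median of 400.5 genes and 0 of them reached 1000, against medians of 841, 147.5 and 288 on HSC plates 1, 2 and 3, where 7 of 21 wells on plate 1 did. The sort markers gave a mixed picture. Flt3, which encodes CD135, and Cd48 were listed below FPKM 1 in all 48 bled HSC, which allows a share of up to 6.25% of cells (3 counts of 48, not the exact interval used below), and on the HSC plates in 5.48% to 9.43% and 0% to 1.89% of cells. Slamf1, which encodes CD150, was detected in 27.1% of bled HSC (interval 15.3 to 41.8) and in 4.00%, 20.8% and 15.1% on plates 1, 2 and 3. Cd34 was detected in 20.8% of bled HSC (10.5 to 35.0) against 34.0%, 56.6% and 42.5%, so the bled plate was the lowest of 4 for the marker that separates the gate from MPP1. Kit, the stem cell factor receptor, was at 72.9% against 90.0%, 88.7% and 84.9%. None of these differences passed limma (adjusted p = 0.721 for Slamf1, 0.913 for Cd34 and 0.940 for Kit).

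Markers that define other cells were mostly undetected. All 10 neutrophil markers were undetected in bled HSC, as were the red cell markers Hba-a2, Alas2 and Slc4a1, while Hbb-b1 was found in 12.5% of cells. Of 11 B and plasma cell markers 2 were detected (Cd79b, in 22.9% of cells, led), of 10 macrophage markers 4 (Cd68, 12.5%), and of 8 mast cell and basophil markers 1, Gata2 (79.2%), which HSC themselves express. Of 10 T and NK cell markers 5 were detected, with a summed mean of 92.1 FPKM against 3.98 to 8.70 on the HSC plates. That sum rested on few cells: 1 bled HSC held Cd3d, Cd3e and Cd3g together, and 7 held Klrb1c. The part of these cells in the results was not tested. Every plate reused index pairs: 84 of the 96 on each normal plate also served on the bled HSC plate.

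By range, 1482 of 6717 genes were higher in bled HSC than on all 3 HSC plates (22.1%) and 846 were lower (12.6%). Many of these lay close to the range: 499 of the higher and 90 of the lower genes were at least 0.5 away from the nearest HSC plate in level, and 150 and 8 were at least 1 away. Without HSC plate 2 the higher genes numbered 2746, and without HSC plate 3 the lower genes numbered 1818 and limma then called 2 genes as lower. The median difference over all genes was 0.08. By limma 24 genes rose (0.357%) and 0 fell (0%), with 322 higher and 83 lower at an unadjusted p under 0.05 (4.79% and 1.24%). The 24 were Id1, Lmna, Atf3, Rgcc (listed as 1190002H23Rik), Nr4a2, Hes1, Mapk6, Nr4a1, Mt1, Cdkn1a, Skil, Tiparp, Jam3, Rgs2, Klf13, Unc45b, Klf4, Rabgef1, Fbxo30, Fosl2, Coq10b, Csrnp1, Hk2 and Art4, and all 24 also lay above all 3 HSC plates in both measures. Of them, 7 (Id1, Lmna, Atf3, Mt1, Cdkn1a, Jam3 and Coq10b) had a mean share under 10% on the 3 HSC plates and entered the test only through the bled plate, where they are high, so their p values are no independent support. With the filter set on the 3 HSC plates alone, an alternative added after seeing the data, these 7 were not tested and 14 of the other 17 passed. With each of the 5 normal plates left out in turn, 9 of the 24 passed every time (Id1, Lmna, Atf3, Rgcc, Nr4a2, Mapk6, Nr4a1, Mt1 and Skil), though Id1, Lmna, Atf3 and Mt1 are among the 7 that the bled plate brought into the test. Without HSC plate 1 the call ended for 13 of the 24, with adjusted p from 0.0691 to 0.393. All 24 calls also ended when FPKM was averaged before taking logs, or with no filter on low values, though all 24 kept their direction. Just inside the threshold were Hk2 and Art4 (adjusted p = 0.0443 and 0.0475), and just outside it Spry2 and Fosb (0.0510 and 0.107).

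**Figure D1:**
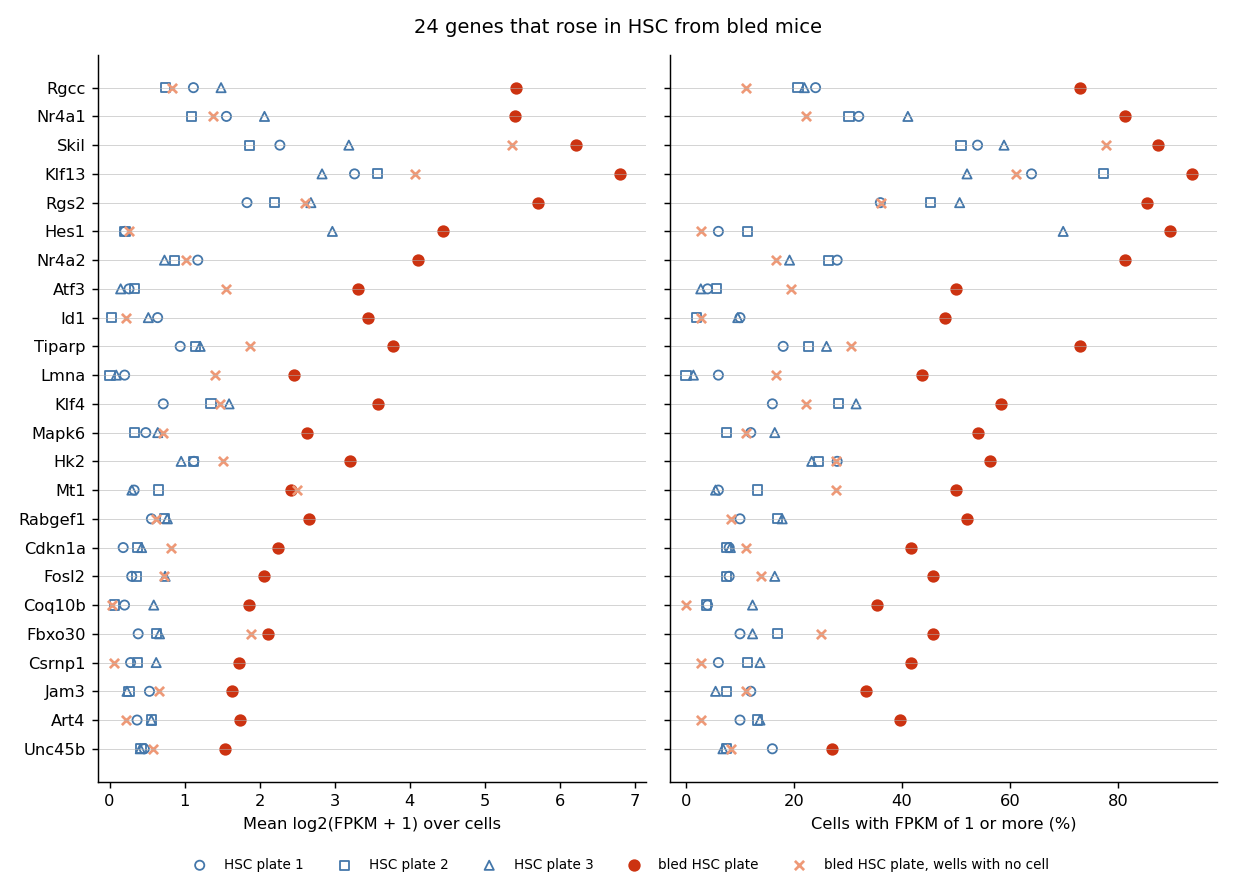
Mean log2(FPKM + 1) over cells (left) and percent of cells at FPKM 1 or more (right) for the 24 genes that passed limma, with HSC plates 1 to 3 as open blue symbols, the bled HSC plate as red points and its 36 wells with no cell as crosses. The red point lies right of all 3 open symbols for each of the 24 genes, while the cross of Skil lies near it and the cross of Mt1 reaches it on the left panel.

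Nr4a1, Nr4a2 and Atf3, 3 immediate early transcription factors that rose, are shown first by sequence, because the 250 bases before their start sites hold a short motif that recurs among the genes that rose. The motif is TGACG, which reads CGTCA on the opposite strand and is part of the cyclic AMP response element TGACGTCA. The sequences are the 250 bases before the RefSeq start site (build GRCm38.p6), written 5′ to 3′ on the strand of the gene, with each TGACG or CGTCA in capitals. They lie at chr15:101266596-101266845 (plus strand) for Nr4a1, chr2:57124004-57124253 (minus strand) for Nr4a2 and chr1:191183334-191183583 (minus strand) for Atf3.
Nr4a1: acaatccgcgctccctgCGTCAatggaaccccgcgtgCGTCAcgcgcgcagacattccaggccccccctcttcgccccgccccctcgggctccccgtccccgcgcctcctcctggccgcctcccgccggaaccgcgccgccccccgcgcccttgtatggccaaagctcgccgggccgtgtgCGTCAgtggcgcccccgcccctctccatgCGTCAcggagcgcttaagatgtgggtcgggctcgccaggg
Nr4a2: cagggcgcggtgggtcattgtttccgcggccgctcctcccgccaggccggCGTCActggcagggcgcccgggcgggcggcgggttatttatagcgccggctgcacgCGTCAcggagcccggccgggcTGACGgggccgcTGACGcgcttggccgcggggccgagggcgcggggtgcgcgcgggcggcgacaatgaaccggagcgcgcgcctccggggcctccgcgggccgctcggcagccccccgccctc
Atf3: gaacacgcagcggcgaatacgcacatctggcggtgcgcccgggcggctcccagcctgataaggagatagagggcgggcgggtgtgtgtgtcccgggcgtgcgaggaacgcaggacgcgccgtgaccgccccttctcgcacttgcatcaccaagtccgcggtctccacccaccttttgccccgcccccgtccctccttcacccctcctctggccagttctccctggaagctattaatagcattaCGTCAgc
Nr4a1 and Nr4a2 each held 4 matches and Atf3 held 1, the first base of which lies 7 bases before the start. Promoters were found for 20 of the 24 genes, and 13 of these 20 (65.0%) held the motif in at least 1 promoter, namely Atf3, Coq10b, Csrnp1, Hk2, Klf13, Klf4, Mapk6, Mt1, Nr4a1, Nr4a2, Rabgef1, Rgcc and Rgs2. Among 5428 tested genes with a promoter the share was 34.0%, also counted in at least 1 promoter per gene. Counted per promoter instead, it was 17.8% of all 32851 promoters of the table. A gene with several promoters had more chances to hold the motif. The whole element TGACGTCA was in 0 of 20 (3.41% of tested genes), the AP-1 motif TGANTCA in 1 of 20 (4.72%) and the E-box CACGTG in 3 of 20 (10.5%). Both strands were searched, TGACG also matches inside TGACGTCA, and the motifs were chosen after the values were seen, so these shares are a description.

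Immediate early genes were mostly on the high side of the HSC plates, where by range 22.1% of all genes were higher and 12.6% lower. A bled HSC had a median of 15 of the 24 tested members at FPKM 1 or more, against 10, 11 and 11 on HSC plates 1, 2 and 3. Cells of MPP1 plates 1 and 2 had medians of 14 and 15, and bled MPP1 had 14. In bled MPP1 the median difference of the list from MPP1 was -0.14. Of 24 tested members 16 were higher than all 3 HSC plates and 2 (Dusp1 and Myc) were lower, with a median difference of 1.21 against 0.08 over all genes, and 6 rose by limma (Fosl2, Atf3, Nr4a1, Nr4a2, Klf4 and Csrnp1). Nr4a1, an orphan nuclear receptor, was detected in 32.0%, 30.2% and 41.1% of cells on HSC plates 1, 2 and 3 and in 81.2% of bled HSC (interval 67.4 to 91.1). Its level was 1.56, 1.09 and 2.06 on the HSC plates and 5.41 on the bled plate, a difference of 3.83 (SE 0.72, adjusted p = 5.01e-04 by limma). The 3 HSC plates spanned 0.97 in level, and the bled plate stood 3.34 above the highest of them.

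Its relative Nr4a2 was detected in 28.0%, 26.4% and 19.2% of normal HSC and in 81.2% of bled HSC (67.4 to 91.1). Levels were 1.18, 0.87 and 0.73 against 4.12 (difference 3.19, SE 0.55, adjusted p = 7.93e-05 by limma). Atf3, a stress-induced factor of the CREB family, was nearly silent in normal HSC, at 4.00%, 5.66% and 2.74% of cells, and was found in 50.0% of bled HSC (35.2 to 64.8). Its level rose from 0.26, 0.33 and 0.15 to 3.31 (difference 3.06, SE 0.43, adjusted p = 4.72e-07 by limma, in a test it entered only through the bled plate). In the no-cell wells of the bled plate Atf3 was in 19.4% of wells at a level of 1.55, above its share and level in cells of every HSC plate. The change lay in how many cells had Atf3 more than in how much: where it was detected, the mean log2 FPKM was 6.53 in bled HSC and 6.44, 5.50 and 5.36 on the HSC plates, the latter from 2, 3 and 2 cells.

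Fosl2, a partner in AP-1, was in 8.00%, 7.55% and 16.4% of normal and 45.8% of bled HSC (difference 1.60, SE 0.39, adjusted p = 0.0316 by limma). Klf4, a zinc finger factor, was in 16.0%, 28.3% and 31.5% against 58.3% (2.35, SE 0.55, adjusted p = 0.0192). Without HSC plate 1 neither passed (adjusted p = 0.374 for both), nor did Fosl2 without HSC plate 2 (0.0913). Other AP-1 genes lay above the HSC plates without passing limma: Fos had levels of 7.32, 6.72 and 6.41 against 8.58, and Fosb 2.32, 1.82 and 3.51 against 5.42. Egr1, a further factor of the same early wave, stayed inside the range in share (76.0%, 77.4% and 86.3% against 83.3%). Dusp1, a phosphatase that shuts off MAP kinases, went the other way, with levels of 5.87, 5.56 and 5.62 against 4.29 (difference -1.40, SE 0.82, adjusted p = 0.877 by limma). Myc, the growth regulator, was in 44.0%, 45.3% and 43.8% of normal and 25.0% of bled HSC (-1.09, SE 0.62, adjusted p = 0.859), and its difference turned positive when FPKM was averaged before taking logs.

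Cdkn1a, Rgs2, Skil and Rgcc also rose; they share no list and are described singly, with Spry2, which lay just outside the threshold. Cdkn1a, which encodes the cell cycle inhibitor p21, was in 8.00%, 7.55% and 8.22% of normal HSC and in 41.7% of bled HSC (27.6 to 56.8), with levels of 0.18, 0.37 and 0.43 against 2.24 (difference 1.92, SE 0.39, adjusted p = 0.00265 by limma, entered only through the bled plate). Rgs2, which dampens signals from G protein-coupled receptors, was in 36.0%, 45.3% and 50.7% of normal and 85.4% of bled HSC (3.47, SE 0.77, adjusted p = 0.00792). Skil, a repressor of SMAD signalling, had 2.27, 1.86 and 3.19 against 6.22 (3.78, SE 0.79, adjusted p = 0.00330). Rgcc, a regulator of cell cycle progression, showed the largest difference of the 24: it was in 24.0%, 20.8% and 21.9% of normal and 72.9% of bled HSC, with levels of 1.12, 0.74 and 1.49 against 5.41 (4.30, SE 0.62, adjusted p = 5.89e-07). Spry2, an inhibitor of receptor tyrosine kinase signalling, was at 2.22, 1.73 and 2.38 against 4.71 and missed the threshold (2.60, SE 0.67, adjusted p = 0.0510). Without HSC plate 1 the calls of Cdkn1a and Rgs2 ended (adjusted p = 0.117 for both). In each of these 5 genes the bled plate lay above the normal plates by more than those differed among themselves.

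No tested gene of the S phase or G2/M lists passed limma. Of 15 tested G2/M genes 5 were lower than all 3 HSC plates (Top2a, Mki67, Kif23, Cenpa and Cenpe) and 2 were higher (Bub3 and Cks2), with a median of -0.33. Over all genes 22.1% were higher and 12.6% lower. The mean share of cells per G2/M gene was 18.8% in bled HSC, above the 13.4% of HSC plate 3 and below the 20.1% and 31.9% of plates 1 and 2. Mki67, a marker of cycling cells, was in 12.0%, 34.0% and 9.59% of normal and 6.25% of bled HSC (difference -0.59, SE 0.45, adjusted p = 0.921 by limma), so HSC plate 3 was nearly as low as the bled plate. Of 20 S phase genes 1 was higher and 1 lower (median -0.03), with a mean share of 28.6% in bled HSC against 24.7%, 40.2% and 18.7% on the HSC plates. Across 14 quiescence regulators 5 were higher (Cdkn1a, Hes1, Btg1, Btg2 and Smad7), 2 of which rose by limma, and Txnip was lower.

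Txnip, which restrains glucose uptake and is abundant in resting HSC, had the largest distance below the normal range of any gene the naming rule allowed. It was in 92.0%, 94.3% and 93.2% of normal and 68.8% of bled HSC (53.7 to 81.3), with levels of 5.92, 6.91 and 6.65 against 3.96 (difference -2.54, SE 0.83, adjusted p = 0.330 by limma). Other low genes at this end were Gcnt2, a glycosyltransferase (3.56, 3.63 and 3.61 against 2.03), Pik3ip1, an inhibitor of PI3 kinase (1.95, 1.86 and 2.10 against 0.90), Ncoa4, the receptor that delivers ferritin for degradation (2.60, 3.15 and 2.77 against 1.41), and Il16 (1.79, 1.96 and 1.86 against 0.89). Their adjusted p values by limma were 0.735 for Gcnt2 and Pik3ip1, 0.734 for Ncoa4 and 0.808 for Il16. For Gcnt2 the HSC plates spanned 0.07 in level, and the distance from the lowest of them to the bled plate was -1.53.

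Id1 and Hes1, repressors of the helix-loop-helix family, both rose, though their normal plates behaved differently. Id1, a target of BMP and cytokine signals, was in 10.0%, 1.89% and 9.59% of normal and 47.9% of bled HSC (33.3 to 62.8), with levels of 0.64, 0.03 and 0.52 against 3.45 (difference 3.05, SE 0.41, adjusted p = 9.02e-08 by limma, entered only through the bled plate). Hes1, a target of Notch signalling, was in 6.00%, 11.3% and 69.9% of cells on HSC plates 1, 2 and 3 and in 89.6% of bled HSC (77.3 to 96.5). Its levels were 0.20, 0.21 and 2.97 against 4.44 (3.32, SE 0.57, adjusted p = 7.93e-05). HSC plate 3 was thus far nearer to the bled plate than to the other normal plates, and the difference of Hes1 was 2.86 to 4.24 with 1 HSC plate at a time left out (adjusted p = 0.0691 by limma without plate 1). Over the 3 HSC plates the level of Hes1 had a standard deviation of 1.60. Its SE thus reflects the pooled spread more than its own. Of 5 tested Notch pathway genes 2, with Hes1 among them, were above the mean of the HSC plates. Hes1 alone rose by limma and alone lay above all 3 plates. Rbpj, the DNA-binding partner of Notch, and Myc were lower than all 3 HSC plates.

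Among stress and metal genes, Mt1, the metal-binding metallothionein, was in 6.00%, 13.2% and 5.48% of normal and 50.0% of bled HSC (difference 1.99, SE 0.38, adjusted p = 6.33e-04 by limma, entered only through the bled plate). Its level in bled HSC, 2.42, did not exceed that in the no-cell wells of the same plate, 2.50. Of 18 antioxidant genes (median 0.77, or 0.91 in bled MPP1 against MPP1) 9 were higher than all 3 HSC plates and 1 (Nfe2l2) was lower. Over all genes 22.1% were higher and 12.6% lower. Txn1, thioredoxin, had levels of 4.28, 4.43 and 3.41 against 6.28 (2.24, SE 0.83, adjusted p = 0.584), and Prdx6, a peroxiredoxin, 5.77, 5.62 and 4.89 against 7.47 (2.04, SE 0.82, adjusted p = 0.657). Lmna, which encodes the nuclear lamins A and C, was in 6.00%, 0% and 1.37% of normal and 43.8% of bled HSC (29.5 to 58.8; 2.36, SE 0.32, adjusted p = 9.02e-08, entered only through the bled plate). Of 11 tested p53 and DNA damage genes Cdkn1a alone passed limma, while Mdm2, Gadd45b, Btg1 and Plk2 were also higher by range and Ccng1 and Sesn1 lower.

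**Figure D2:**
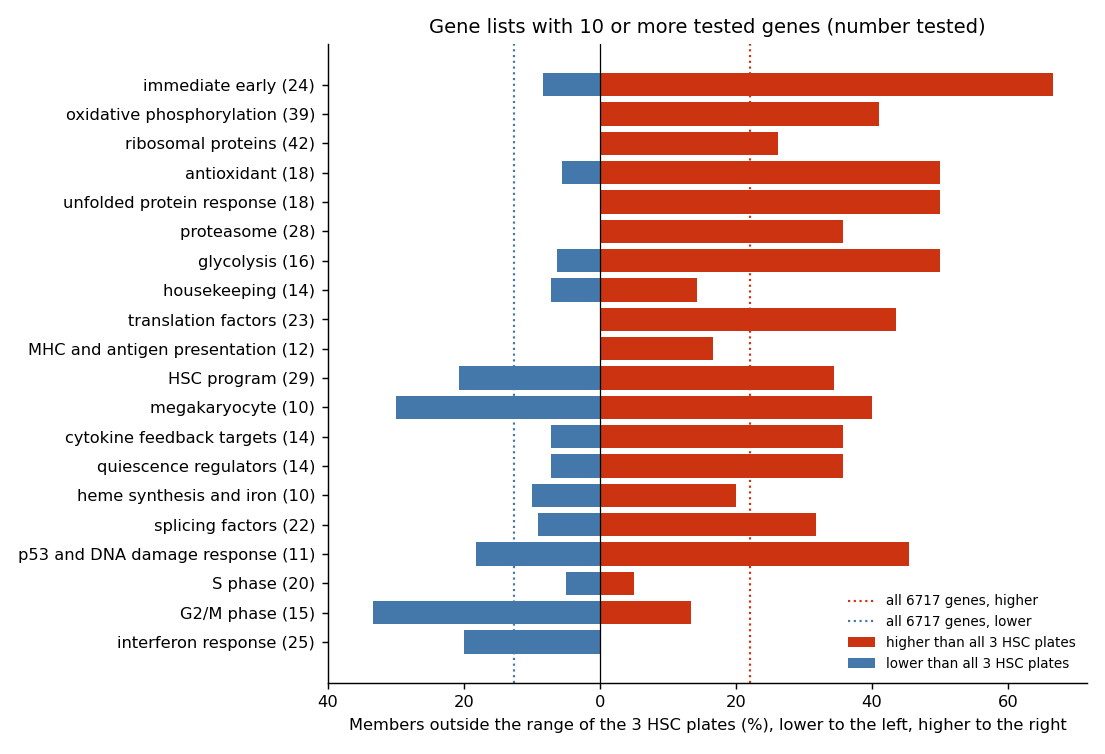
Percent of tested members of each gene list that lay above (red, to the right) or below (blue, to the left) all 3 HSC plates in share and level, with dotted lines at the values for all 6717 genes (22.1% and 12.6%). Only lists with at least 10 tested genes are shown. Immediate early genes extend farthest to the right, with 16 of 24, and the interferon response has no member on the right.

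Genes of energy metabolism and protein production stood mostly on the high side, with 1 call among them. By range 22.1% of all genes were higher and 12.6% lower. Housekeeping genes also had a raised median, 0.60, or 0.41 in bled MPP1 against MPP1. Of 14 tested, 11 were above the mean of the HSC plates, 2 were higher than all 3 and 1 was lower. Among genes with a mean share of at least 20% the median difference was 0.19, against 0.08 over all genes. Of 39 oxidative phosphorylation genes 16 were higher than all 3 HSC plates and 0 lower (median 0.94). Atp5b, the catalytic subunit of ATP synthase, had levels of 4.91, 5.51 and 4.05 against 7.00 (difference 2.18, SE 0.83, adjusted p = 0.612 by limma), and Cox8a, a cytochrome oxidase subunit, 5.33, 5.07 and 4.81 against 6.92. Of 16 glycolysis genes 8 were higher and 1 (Aldoc) lower. Hk2, the hexokinase that commits glucose to the pathway, rose, from 28.0%, 24.5% and 23.3% of normal to 56.2% of bled HSC (2.14, SE 0.54, adjusted p = 0.0443), and was in 27.8% of the no-cell wells of the bled plate. Its call ended without HSC plate 1 (adjusted p = 0.311), HSC plate 2 (0.0856), MPP1 plate 1 (0.0781) or MPP1 plate 2 (0.0785). HSC plate 3 had the lowest share of the oxidative phosphorylation list (a mean of 49.1% of cells per gene, against 69.2% and 70.0% on plates 1 and 2 and 73.5% on the bled plate), so the list separated plate 3 from the rest more than it separated the bled plate from plates 1 and 2. In bled MPP1 the median difference from MPP1 was 1.12 for oxidative phosphorylation and 0.86 for glycolysis, against 0.22 over all genes. For the lists described next it was 0.15 (ribosomal proteins), 0.30 (translation factors), 0.97 (proteasome) and 0.43 (unfolded protein response).

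Ribosomal proteins were above the mean of the HSC plates in 42 of 42 cases, against 58.1% of all genes. Only 11 of 42 lay outside all 3 plates (26.2%, near the 22.1% of all genes). Translation factors were higher in 10 of 23 cases (median 0.50), proteasome subunits in 10 of 28 (0.72) and unfolded protein response genes in 9 of 18 (0.73), with 0 lower in each and 0 calls. Manf, a secreted protein of the endoplasmic reticulum stress response, had levels of 1.62, 1.64 and 0.97 against 2.95 (difference 1.54, SE 0.52, adjusted p = 0.385 by limma).

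The HSC program, genes that mark stem cells, had members outside the range on both sides. All genes tested did so as well, with 22.1% higher and 12.6% lower. The median difference of the list was 0.34, or 0.60 in bled MPP1 against MPP1, where over all genes it was 0.08 and 0.22. Of 29 tested members 10 were higher than all 3 HSC plates (Slamf1, Mecom, Fgd5, Fli1, Vwf, Ctnnal1, Sult1a1, Cd63, Ptprcap and Nupr1) and 6 were lower (Hlf, Meis1, Gfi1b, Lmo2, Tek and Mycn), and 0 passed limma. Cd63, a tetraspanin, had levels of 4.04, 2.95 and 3.60 against 5.49 (difference 1.96, SE 0.77, adjusted p = 0.629). Vwf, the von Willebrand factor gene that marks HSC with platelet bias, was in 16.0%, 18.9% and 16.4% of normal and 35.4% of bled HSC, with levels of 0.73, 0.69 and 0.67 against 1.43 (0.73, SE 0.29, adjusted p = 0.628). Hlf, a transcription factor of HSC, was at 4.46, 4.34 and 4.37 against 3.58 (-0.81, SE 0.77, adjusted p = 0.943), and Tek, the angiopoietin receptor, at 0.85, 0.79 and 0.83 against 0.27 (-0.56, SE 0.29, adjusted p = 0.825). For Vwf, Hlf and Tek the 3 normal plates lay within 0.12 of each other and the bled plate stood clear of them, while Fgd5 and Fli1 lay barely above the highest normal plate.

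**Figure D3:**
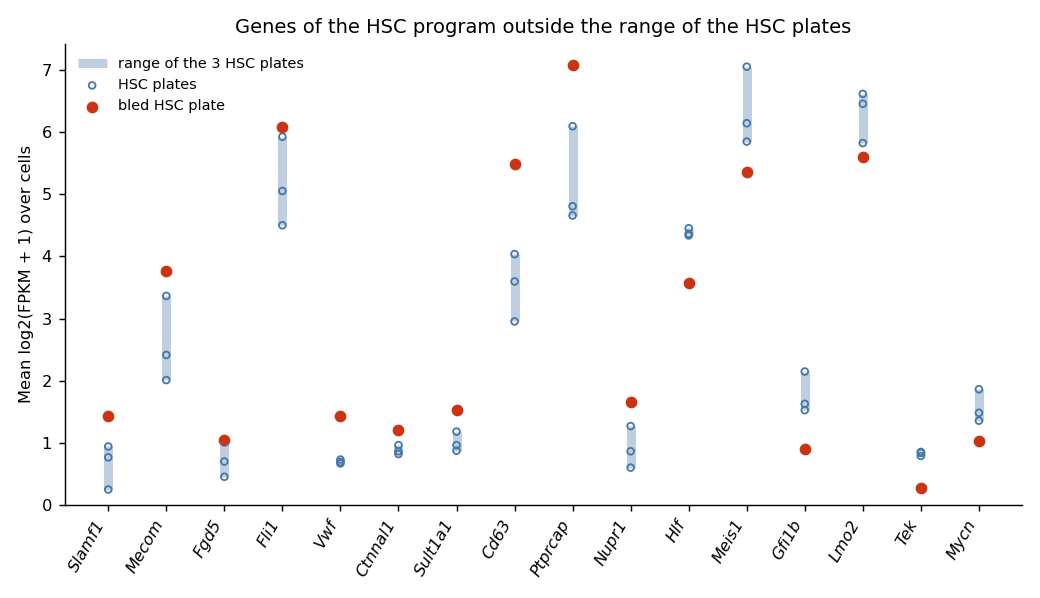
Mean log2(FPKM + 1) over cells for the 16 genes of the HSC program that lay outside the HSC plates, with the 3 HSC plates as open blue points, their range as a bar and the bled HSC plate in red. The bled plate lies above the bar for 10 genes and below it for 6, and 0 of the 16 passed limma.

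No gene of the megakaryocyte, erythroid, heme or lymphoid lists passed limma. For each list below, the shares over all genes were 22.1% higher and 12.6% lower. Of 10 tested megakaryocyte genes 4 were higher (Vwf, Fli1, Rap1b and F2r) and 3 lower (Pf4, Gp9 and Nfe2). Nfe2, a factor of platelet and red cell formation, had levels of 4.44, 3.84 and 3.88 against 2.74 (difference -1.32, SE 0.77, adjusted p = 0.873 by limma). F2r, a thrombin receptor, was at 0.87, 1.33 and 1.03 against 2.47 (1.40, SE 0.53, adjusted p = 0.612). Of 28 listed erythroid genes 7 were tested, with Prdx2 higher and Gfi1b lower, and of 10 tested genes of heme synthesis and iron handling Alas1 and Alad were higher and Ireb2 lower, with 0 calls in either list. Of 6 tested granulocyte-monocyte genes Prtn3 and Klf4 were higher and Csf3r and Cd34 lower, and only Klf4, also an immediate early gene, passed limma. Of 4 tested lymphoid genes Lsp1 was higher and 0 were lower. The interferon response, the antiviral program, held 0 higher and 5 lower of 25 tested genes (Ifit1, Oas2, Stat2, Trim30a and Xaf1; median -0.51), and HSC plate 3 was lower still in mean share of cells per gene (18.8%, against 21.9% in bled HSC and 33.6% and 37.5% on plates 1 and 2).

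Counted within single cells, the 24 genes that rose were spread over most of the bled HSC. This count was made after the genes were known and restates the rule in single cells. A bled HSC had a median of 14.5 of the 24 at FPKM 1 or more (lowest 1, quartiles 12 and 16.2, highest 22). On HSC plates 1, 2 and 3 the medians were 4, 5 and 5, and the highest of 176 normal HSC had 12. Of 48 bled HSC 32 exceeded that cell, and 2 were at or below the normal median of 4. The count rose with the number of genes detected in the cell (Spearman's rho 0.57 over 48 bled HSC, and 0.30, 0.24 and 0.47 on the HSC plates; both numbers come from the same library). Pairs of the 24 genes were weakly correlated across bled HSC, with a median rho of 0.11 over 276 pairs, against 0.03, 0.05 and 0.06 on the HSC plates.

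**Figure D4:**
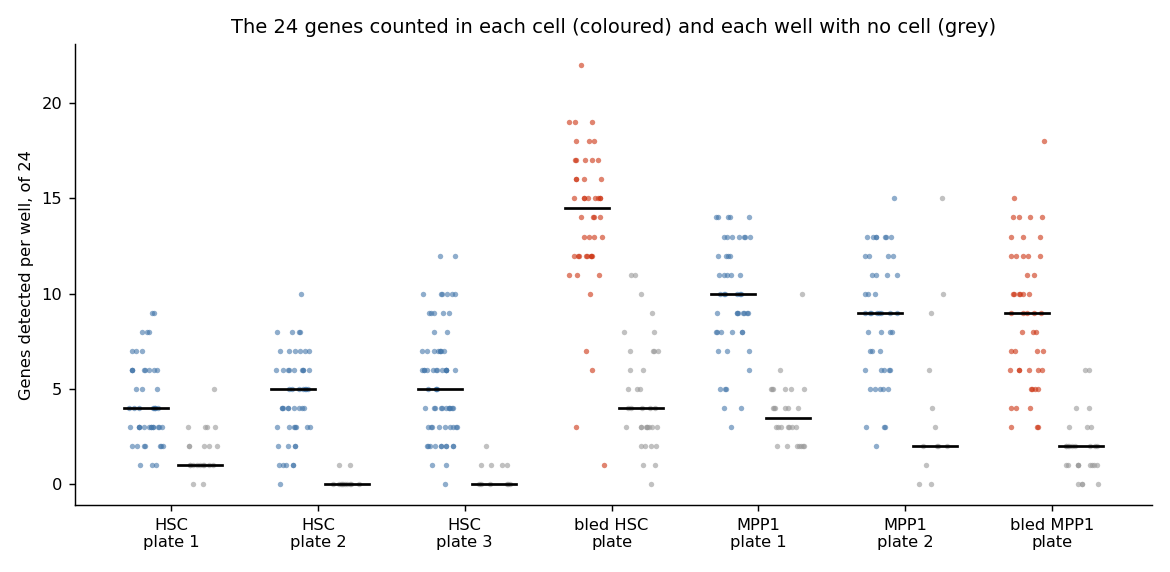
Number of the 24 genes detected at FPKM 1 or more in each cell (coloured; red for plates from bled mice) and each well with no cell (grey), with the median as a black bar, for the 7 plates. The median is 14.5 in bled HSC, 4 to 5 on the HSC plates, and 9 to 10 on the MPP1 plates, bled or normal, while the no-cell wells of the bled HSC plate have a median of 4.

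The no-cell wells of the bled HSC plate held a part of the same genes. They had a median of 4 of the 24 (highest 11), against 1, 0 and 0 on HSC plates 1, 2 and 3. Skil was in 77.8% of these 36 wells, Klf13 in 61.1%, Rgs2 in 36.1%, Tiparp in 30.6% and Mt1 in 27.8%, while Id1 and Hes1 were in 2.78% each. For 18 of the 24 the share in these wells was above that in no-cell wells of every HSC plate, and for 7 (Lmna, Atf3, Mt1, Cdkn1a, Skil, Tiparp and Fbxo30) it was above the share in cells of every HSC plate. By level, 12 of the 24 were higher in these wells than in cells of every HSC plate. None of these counts was made over all genes. Over all tested genes the mean share was 5.97% in these wells and 11.5%, 2.83% and 4.45% in those of HSC plates 1 to 3. Cells exceeded no-cell wells in share for all 24, an order that the choice of genes and cells largely set in advance. Cells needed 1000 genes, which 0 of the 36 no-cell wells reached. With the level of no-cell wells subtracted plate by plate, an alternative added after seeing the data, 21 of 24 kept a positive difference and limma called 0 genes (56 higher and 63 lower at an unadjusted p under 0.05). The part of this background in the results was not tested further.

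MPP1 gave a second pair of plates from bled and normal mice. Median genes per cell were 2535 and 2520.5 on the normal MPP1 plates, against 2157.5, 2594 and 1969 on the HSC plates. In normal MPP1 21 of the 24 genes had a higher mean level than in normal HSC, and cells of MPP1 plates 1 and 2 had medians of 10 and 9 of the 24. The bled HSC level was nevertheless above both MPP1 plates for all 24, which were chosen as high in bled HSC. The same counts were not made over all genes. In bled MPP1 the median was 9, and the 24 genes had a median difference from normal MPP1 of -0.24, against 2.25 in HSC, the contrast that chose them. Of the 24, 9 were above both MPP1 plates in share and level and 11 below (37.5% and 45.8%), where over all genes it was 48.6% and 12.1%.

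The difference between the 2 cell types was tested as an interaction, and 11 of 6717 genes passed (0.164%), with 361 at an unadjusted p under 0.05. The number fell to 4 without HSC plate 1, 5 without HSC plate 2 and 6 without MPP1 plate 1. In 10 of them the bled minus normal difference was larger in HSC: Nr4a2, Nr4a1, Atf3, Mapk6, Fosl2, Lmna, Tiparp, Rabgef1, Skil and Klf13. Of these, Atf3 and Lmna entered the test only through the bled HSC plate, so their p values are no independent support. Nr4a1 was in 86.3% and 79.2% of cells on the MPP1 plates and in 56.0% of bled MPP1, so it lay 3.83 above normal in bled HSC and -2.04 from normal in bled MPP1 (interaction 5.87, SE 1.04, adjusted p = 4.46e-04 by limma). Nr4a2 lay 3.19 above and -1.30 from normal (4.49, SE 0.80, adjusted p = 4.46e-04). Id1, Hes1, Mt1 and Rgcc were higher in both bled plates, by 1.86, 1.57, 1.51 and 1.37 in bled MPP1, and did not pass the interaction test. In MPP1 itself limma called 12 of 6717 genes higher (0.179%), with Id1 among them (adjusted p = 0.0272) and Hes1 (0.323), Mt1 (0.0902) and Rgcc (0.482) not. Aldoc, a glycolytic aldolase, had the opposite pattern, at -0.43 in bled HSC and 1.36 in bled MPP1 (-1.80, SE 0.44, adjusted p = 0.0486).

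**Figure D5:**
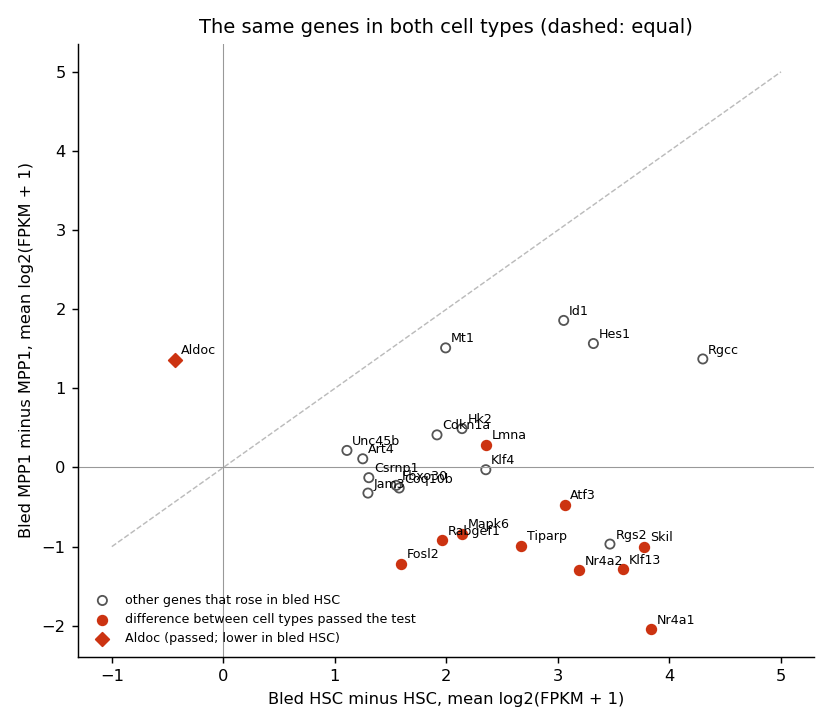
Bled minus normal difference in HSC (horizontal) and in MPP1 (vertical), both in mean log2(FPKM + 1) over cells, for the 24 genes that rose in bled HSC and for Aldoc; filled red symbols passed the interaction test and the dashed line marks equal differences. The 24 were chosen for their difference in HSC, which favours a place below the line; their values in MPP1 run from -2.04 for Nr4a1 to 1.86 for Id1.

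Beyond the 24, the genes outside the normal HSC range had partly the same side in MPP1. Of the 1482 higher genes 55.0% were also above both MPP1 plates in bled MPP1, where over all tested genes it was 48.6%. Of the 846 lower genes 18.1% were below both, against 12.1%. The bled MPP1 plate, with a median of 3046.5 genes per cell, was above both MPP1 plates for 48.6% of all genes, so these shares stand near their background.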

How the data were processed

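RNA of single HSC and MPP1 was amplified by Smart-seq, per the labels' protocols; for HSC plate 3 the protocol names the C1 Fluidigm system. The authors deposited FPKM values, 1 per gene and well, for 21664 genes. The submitters' processing notes name TopHat 1.3.3, Cufflinks 1.2.1 and the build mm9, and for HSC plate 3 also Bowtie2 2.2.1. Separate runs of HSC plate 1 exist in the labels, and its columns could hold either. Read depth is unknown: among low values of pairs of cells the commonest ratio held 1.29% to 5.50% of genes, so no step of whole reads was found. Median total FPKM per cell was 210791 to 286197 on the HSC plates and 285230 on the bled HSC plate. No 2 columns were identical.

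Groups came from the labels. Wells labelled with 1 cell and at least 1000 genes at FPKM 1 were kept; no doublet caller was run, since the labels give the cell number. Levels were plate means of log2(FPKM + 1), tested with limma 3.58.1 in R 4.3.3 (4 group means, trend, two-sided, adjusted p of 0.05). The fit was also run on simulated plates with known shifts, all drawn with the same kind of independent noise. That run checks the computation and cannot test whether the lone bled plate varies like the others. Plates are the replicates. Where nothing says they came from separate animals, p values measure only a spread between plates, estimated mostly over genes rather than gene by gene. Limma's prior degrees of freedom were 100.4 in the main fit and 13.6 with FPKM averaged before taking logs. They were 2.95 with no filter on low values and 10.7 with no-cell wells subtracted. Symbols were matched to RefSeq (GRCm38.p6, names and promoters only): 21191 by accession, 325 by symbol, 96 by synonym and 52 not at all. Of 44 listed ribosomal proteins 42 stood in the files, and 19 of 21 glycolysis genes.

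The members, the 36 lists and the tests were chosen with earlier results of these data known. Named genes were up to 15 per direction outside the HSC plates by distance, up to 3 outside members per list, up to 10 per direction past the threshold in either contrast, the sort markers and Hes1; others were named after their values were seen, among them Fos, Fosb, Egr1, Mki67, Vwf, Jam3, Unc45b, Fbxo30, Coq10b, Csrnp1 and Art4. Small RNAs, predicted genes and unmatched entries were counted but not named. One red cell marker is not reported here. Alternatives changed the detection limit, filters, cells, pseudocount, scaling and plates.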

Additional observations from a re-analysis of the deposited data

Results flagged for a closer look

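For 11 genes the bled minus normal level differed between HSC and MPP1 by limma's interaction test over 7 plates. With 1 bled plate for each cell type, bleeding and plate cannot be told apart in either difference. In 10 of them HSC had the larger difference. Among these, Atf3 and Lmna entered the test only through the bled HSC plate, where they are high. The interaction was 5.87 for Nr4a1, 4.87 for Klf13, 4.77 for Skil, 4.49 for Nr4a2, 3.66 for Tiparp, 3.53 for Atf3, 2.98 for Mapk6, 2.89 for Rabgef1, 2.81 for Fosl2 and 2.07 for Lmna, on the log2(FPKM + 1) scale, with adjusted p values from 4.46e-04 to 0.0486. Bled MPP1 lay below the mean of normal MPP1 for 9 of these 10, by -0.47 for Atf3 to -2.04 for Nr4a1, and above it by 0.29 for Lmna. For Aldoc, the interaction was -1.80 (adjusted p = 0.0486). It was in 24.0% of bled MPP1, against 5.88% and 2.08% on the MPP1 plates and 6.25% of bled HSC.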

How the results depend on the processing

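All 24 genes kept a positive difference under each of 15 other settings in which they were tested, and how many genes passed limma varied from 0 to 31. With a mean share of at least 20%, 968 genes were higher and 393 lower than all 3 HSC plates, and limma called 14 of 3957 genes, of which 13 were among the 24. Without any filter these numbers were 2786, 1647 and 0, with 0 in the interaction (820 higher and 122 lower at an unadjusted p under 0.05). With FPKM averaged before taking logs 938 were higher, limma called 0 (164 and 194 unadjusted) and the interaction 2; Myc (0.0645), Xaf1 (0.128), Xbp1 (-0.0815) and Psmb8 (-0.0546) then changed sign, and Psmb8 also in cells with at least 2000 genes (-0.291). A pseudocount of 0.1 gave 6 genes in the interaction. Rescaling each cell to the same total gave 15 calls, all among the 24, and 5 in the interaction, and moved the split of genes outside the range from 1482 higher and 846 lower to 1342 and 1027. The cause of these shifts was not tested.

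With 1 plate left out at a time, 1669 to 2746 genes were higher and 835 to 1818 lower than the remaining HSC plates, limma called 12 (without HSC plate 1) to 27 (without HSC plate 3, 2 of them lower), and the interaction 4 (without HSC plate 1) to 12. Without HSC plate 2 the interaction called 5. Of 2 alternatives added after seeing the data, a filter on the normal HSC plates alone gave 14 calls, all among the 24, and 5 in the interaction, and subtracting no-cell wells, where 21 of the 24 stayed positive, gave 0 and 0 (204 unadjusted in the interaction). No paired analysis was possible because the labels give the bled plates no replicate number. Of 348 list medians under alternatives 82 moved by more than the spread between the HSC plates. Depth is unknown, and there is 1 bled plate.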
